A study of Mus musculus with 12 samples.

Results

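Long intergenic noncoding RNAs (lincRNAs) were examined in 2 mouse mammary tumour cell lines. The D2A1 line grows into metastases after injection into mice and serves as the proliferative model, and the D2.OR line serves as the dormant one. Each was established from its own mouse tumour, so each comparison of lines is between 1 line and 1 other. Both were grown on plastic (2D) or on Matrigel in a Matrigel-on-top culture (3D), with no drug treatment named. For RNA, several wells were pooled. The 3D medium held horse serum, hydrocortisone, cholera toxin and insulin, while the methods describe 2D cultures both in this medium and in DMEM, so that any difference of medium between the RNA-seq cultures cannot be told apart from culture. RNA-seq gave 12 libraries, 3 in each of the groups D2A1 2D, D2A1 3D, D2.OR 2D and D2.OR 3D, and each replicate was also a batch sequenced in its own lane. The members described here were chosen by measured level: genes annotated as lincRNA on chromosomes 1 to 19 with a TPM (a level corrected for gene length and library size) of 1 or more in all 3 libraries of at least 1 group, leaving out H19 and Meg3. They numbered 230 of 4437 autosomal lincRNA genes, or 5.18%, among 52550 genes in all.

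LincRNAs are transcribed from their own genes between protein-coding genes, and many are spliced and polyadenylated. Their known roles differ widely. MALAT1 and NEAT1 stay in the nucleus, where NEAT1 builds paraspeckles. Others carry snoRNAs or microRNAs in their introns or exons, bind proteins in the cytoplasm as Norad does, or mark the activity of a nearby gene. As a class they are known for low levels and for expression in few cell types.

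The libraries held 47589613 to 73325057 counts. Members took 0.227% to 0.285% of all TPM in a library, and 170 to 190 of them reached a TPM of 1 in any library. As a check of the lines, the epithelial keratin Krt8 was at 700.2 to 1022 TPM in D2.OR 2D and at 227.4 to 527.3 TPM in D2.OR 3D. Over the 6 D2A1 libraries it was at 0.78 to 2.31 TPM. Krt18 was at 439.5 to 666 TPM in D2.OR 2D and at 124.9 to 332.9 TPM in D2.OR 3D. In D2A1 it was at 92.7 to 294.5 TPM, which overlapped D2.OR 3D. Krt19 stayed at or below 0.14 TPM in all 12. Of the epithelial marker list, 1 of 7 genes reached the TPM rule in both D2A1 groups and 4 of 7 in both D2.OR groups. The 7 mesenchymal markers summed to 2914 to 3476 TPM in D2A1 2D and 4848 to 6022 TPM in D2.OR 2D, and to 1594 to 3439 TPM and 3508 to 6407 TPM in 3D, with Vim and Fn1 as the most abundant and Thy1 at or below 0.15 TPM in all 12. The 3 endothelial markers summed to at most 0.42 TPM in any library. Summed TPM of the 4 leukocyte markers was 2.29 to 32.1, nearly all of it Cd68, with Ptprc, Lyz2 and Cd3e at or below 0.16 TPM. The 3 adipocyte markers summed to 57.4 to 479.6 TPM in D2.OR 3D against 4.41 to 34.0 elsewhere. The part of these markers in the results on members was not tested.

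Members were mostly rare transcripts. Their mean TPM over the 12 libraries had a median of 2.35 and reached 326.3, and 104 of the 230 averaged under 2 TPM while 39 averaged 10 or more. The 11327 autosomal protein-coding genes that met the same rule had a median of 26.1 TPM. The rule was met in all 4 groups by 108 members, or 47.0%, and by 87.8% of those coding genes. It was met in D2A1 groups only by 44 members (19.1%, against 3.30% of coding genes) and in D2.OR groups only by 51 members (22.2%, against 5.84%). Members and coding genes differed in level, so these shares describe the rule and are given with no test. At the edge of the rule, Gm11827 entered with 3.12, 1.97 and 1.0 TPM in D2.OR 3D and AC124484.1 with 1.39, 1.44 and 1.0 TPM in the same group, whereas 2310074N15Rik with 0.99, 1.26 and 1.27 TPM in D2A1 3D and Gm45250 with 1.05, 1.07 and 0.99 TPM in D2.OR 3D stayed outside.

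**Figure D1:**
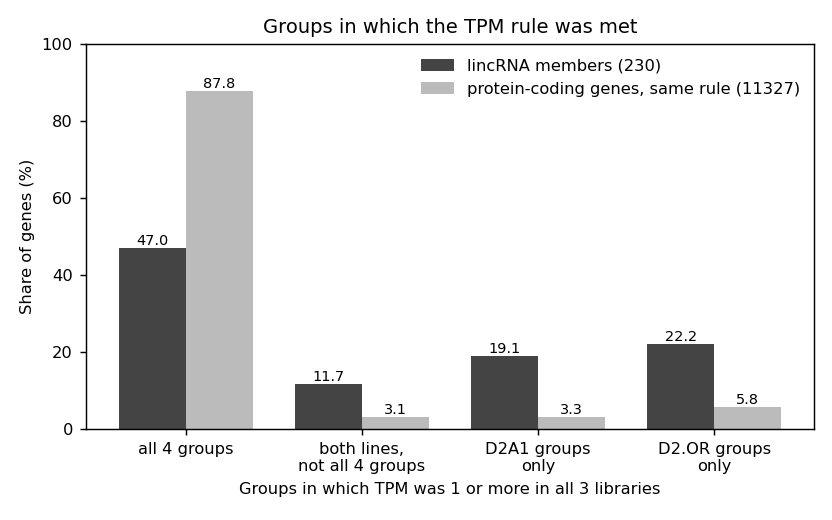
Share of genes, in percent, by the groups in which TPM was 1 or more in all 3 libraries, for the 230 members (dark bars) and the 11327 protein-coding genes under the same rule (light bars). Members met the rule in all 4 groups in 47.0% of cases and coding genes in 87.8%.

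By the later GENCODE release M21, on the same GRCm38 build, 216 of the 230 members were still listed as lincRNA. The longest transcript of a member had a median of 1664.5 bases, 2 exons and a longest open reading frame of 235.5 bases (228 members with a transcript), against 3393 bases, 9 exons and 1221 bases for the coding genes. A single exon was all that 17.5% of members had, against 2.35% of coding genes. Exon bases were shared with another gene, on either strand, by 86 of the 228, and 27 shared 50% or more. RSEM gave 153 members an expected count within 0.005 of a whole number in all 12 libraries, and 43 a count that was not whole in any of them, since it divides reads that fit several genes. Whether the libraries were stranded is not given in the sources used here, so reads of a member and of an overlapping gene cannot be told apart.

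Of the 230 members, 101 had an entry in the RefSeq promoter table of GRCm38.p6, each running from 250 bases before to 50 bases after the start. The 4 shown are those of members that were nearly absent from one line (Platr20, 3300005D01Rik and G730013B05Rik) or lower in 3D in one line (Halr1), whose values follow. Capitals mark matches, on either strand, to the TATA box letters TATAAA or the CCAAT box, which is searched by those same letters. Matches to the GC box, spelled GGGCGG, are in capitals too. So are those to the AP-1 site, spelled TGANTCA. The regions were chr11:51220369-51220668 on the minus strand, chr17:5798407-5798706 on the plus strand, chr16:50525995-50526294 on the plus strand and chr6:52102699-52102998 on the plus strand.
Platr20: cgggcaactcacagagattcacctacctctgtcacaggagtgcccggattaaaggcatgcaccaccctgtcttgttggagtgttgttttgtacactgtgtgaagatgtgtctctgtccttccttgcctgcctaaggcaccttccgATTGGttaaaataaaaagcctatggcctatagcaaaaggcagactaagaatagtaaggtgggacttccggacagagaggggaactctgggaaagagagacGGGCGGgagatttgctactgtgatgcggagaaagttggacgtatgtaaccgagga
3300005D01Rik: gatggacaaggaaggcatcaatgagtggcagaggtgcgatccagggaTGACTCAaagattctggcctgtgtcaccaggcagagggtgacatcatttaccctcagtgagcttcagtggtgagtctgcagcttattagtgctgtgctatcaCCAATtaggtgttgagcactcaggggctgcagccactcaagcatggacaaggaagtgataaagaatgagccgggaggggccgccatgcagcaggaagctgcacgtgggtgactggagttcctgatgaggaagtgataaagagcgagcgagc
G730013B05Rik: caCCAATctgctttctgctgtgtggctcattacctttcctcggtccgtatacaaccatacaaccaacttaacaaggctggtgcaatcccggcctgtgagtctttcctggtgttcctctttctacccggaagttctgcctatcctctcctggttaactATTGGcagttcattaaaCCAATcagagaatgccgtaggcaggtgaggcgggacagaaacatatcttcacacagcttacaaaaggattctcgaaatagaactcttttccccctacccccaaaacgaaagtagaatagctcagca
Halr1: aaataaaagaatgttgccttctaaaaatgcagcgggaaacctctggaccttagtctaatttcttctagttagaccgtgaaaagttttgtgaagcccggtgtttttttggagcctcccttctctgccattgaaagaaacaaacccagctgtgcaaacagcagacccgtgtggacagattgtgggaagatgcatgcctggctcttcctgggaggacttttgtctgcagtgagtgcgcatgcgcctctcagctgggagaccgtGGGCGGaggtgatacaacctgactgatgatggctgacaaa

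None of the 4 held a TATA box match. The Platr20 promoter held 1 CCAAT box and 1 GC box, that of 3300005D01Rik 1 CCAAT box and 1 AP-1 site, that of G730013B05Rik 3 CCAAT boxes, and that of Halr1 1 GC box. Over all 32851 promoters of the table, 13.6% held the TATA box, 37.4% the CCAAT box, 35.7% the GC box and 7.81% the AP-1 site. Over the 115 promoters of members, some with several entries, the shares were 9.57%, 40.9%, 47.8% and 11.3%. A match describes letters in the window and not a bound site. The RefSeq start of G730013B05Rik lay 59 bases from the start in the files, and the other 3 coincided.

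The most abundant members included the nuclear RNAs Malat1 and Neat1, which lie near each other on chromosome 19 (chr19:5795690-5802672 and chr19:5824708-5845478, both minus strand), and 3 RNAs from one stretch of chromosome 17 known to match the 45S ribosomal RNA unit. By the mean over the 12 libraries Gm26825 was highest (326.3 TPM), although AY036118 had the higher mean in D2A1 2D (346.3 TPM). Gm26825 was at 299 ± 114.5 TPM in D2A1 2D, 418 ± 35.8 in D2A1 3D, 316 ± 8.12 in D2.OR 2D and 273 ± 14.8 in D2.OR 3D (mean ± SD, n = 3), and 91.8% of its exon bases were shared with another gene. Its expected counts were not whole in any of the 12 libraries.

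Of the ribosomal stretch, AY036118 ranged from 135.6 to 490.9 TPM, Gm42418 from 57.6 to 174.6 TPM and Gm26917 from 49.8 to 117.3 TPM over the 12 libraries. AY036118 and Gm42418 shared 100% and 99.5% of their exon bases. AC151730.2 (105.8 to 189.3 TPM), the RNA of Norad, listed as 2900097C17Rik (70.5 to 95.6 TPM), 1810058I24Rik (44.9 to 88.3 TPM) and the snoRNA host Snhg12 (30.2 to 87.9 TPM) completed the 10 most abundant. Norad, known to hold Pumilio proteins in the cytoplasm, had an edgeR log2 fold change between lines of -0.01 ± 0.11 in 2D and 0.17 ± 0.11 in 3D (± SE, adjusted p = 0.94 and 0.23).

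Between the lines, members differed in both directions. In 2D, 59 of the 228 members tested passed with a higher level in D2.OR and 56 with a lower one (edgeR quasi-likelihood test, Benjamini-Hochberg adjusted p under 0.05), against 25.4% and 24.4% of all 16823 genes tested. In 3D, 65 were higher and 63 lower, against 27.7% and 26.1% of all genes. The median log2 fold change of the members was -0.016 in 2D and 0.049 in 3D, beside -0.003 and 0.001 over all genes, and both values stayed the same with members that had no count in a group set to their lowest possible fold. In 2D, 29 of the 42 tested members that met the rule in D2A1 groups only passed as lower in D2.OR. Of those that met it in D2.OR groups only, 34 of 51 passed as higher. Such a choice favours a difference between the lines, so members that met the rule in both groups compared were also counted apart. Of these 120 members, 45 passed in 2D (21 higher in D2.OR, 24 lower), which is 37.5%, and another set of 120 had 27 higher and 31 lower in D2.OR 3D, which is 48.3%. Coding genes counted in the same way passed in 51.9% and 56.2% of cases. The median absolute log2 fold change was 0.49 in 2D and 0.577 in 3D for these members, beside 0.404 and 0.455 for those coding genes. The sets were not matched for level, and the part of level in the shares was not tested.

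Of the members tested, 49 (21.5%) were higher in D2.OR in both cultures and 42 (18.4%) were lower in both, against 20.3% and 17.8% of all genes tested. Halr1 alone passed as lower in 2D and higher in 3D, and its 3D difference was -0.19, 2.68 and 2.30 by batch, so that batch 1 went the other way. Halr1 met the TPM rule in D2A1 2D only, so that its 2D difference was part of its choice. All 6 D2.OR libraries lay above all 6 D2A1 libraries for 40 members, and all D2A1 libraries above all D2.OR libraries for 41, beside 15.4% and 16.9% of all genes tested. Of these, 27 of the 40 and 22 of the 41 met the rule in that line only, so that a gap was part of their choice, and among the 108 members that met it in all 4 groups the counts were 12 and 12. Of the members that passed in 2D, 115 in all, the count was 61 without batch 2 and 68 without batch 3. In 3D it went from 128 to 72 without batch 2 and to 85 without batch 3.

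**Figure D2:**
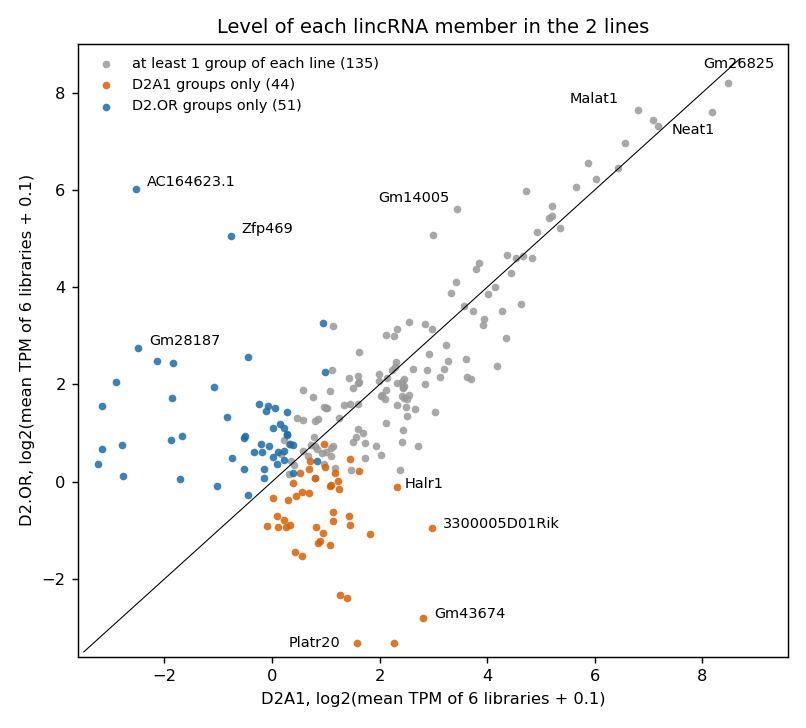
Mean TPM of each of the 230 members over the 6 D2A1 libraries (horizontal axis) and the 6 D2.OR libraries (vertical axis), both as log2 of the mean plus 0.1, with the line of equal level. Blue points met the rule in D2.OR groups only (51) and orange points in D2A1 groups only (44), and AC164623.1 lies farthest to the D2.OR side.

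The widest gap between the lines was that of AC164623.1 (chr10:79412962-79417905, minus strand). It was at 47.9, 71.3 and 68.2 TPM in batches 1, 2 and 3 of D2.OR 2D and at 50.3, 70.3 and 79.3 TPM in D2.OR 3D. In D2A1 it was at 0.03 to 0.14 TPM over the 6 libraries. The lines were far apart in either culture, with a log2 fold change of 10.44 ± 0.28 in 2D and 9.38 ± 0.25 in 3D (± SE). As for every member that met the rule in 1 line only, the gap was part of its choice, and the fold change is given as a description without a test. Its longest open reading frame spanned 1134 bases, or 41.9% of the transcript. Whether this frame is coding, or of viral origin, was not tested. Its expected count was not whole in 5 of the 12 libraries. AC164623.1 was singled out after its values were seen, as were Zfp469, Gm28187, Gm44751 and 3300005D01Rik in what follows.

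Zfp469 (chr8:122269569-122272650, plus strand) was also high in D2.OR. The human gene of this name encodes a zinc finger protein, while the annotation of the files lists the mouse gene as lincRNA. By batch it was at 16.5, 32.3 and 39.0 TPM in D2.OR 2D and at 17.3, 52.4 and 39.8 TPM in D2.OR 3D. In D2A1 it was at 1.21, 0.17 and 0.07 TPM in 2D and 0.99, 0.16 and 0.33 TPM in 3D. The lines did not overlap, and batch 1 was lowest in D2.OR and highest in D2A1 in both cultures. The log2 fold change was 6.28 ± 1.04 in 2D and 6.41 ± 1.03 in 3D. It overlaps the long gene model Gm20388 on the same strand. Its single-exon transcript of 3082 bases held an open reading frame of 1572 bases, beside a median of 235.5 bases over the members. The stretch from base 165 to base 314 of the GENCODE M21 transcript, around the first codon of that frame (ATG in capitals), is shown because a frame of this length sets the gene apart from most members.
Zfp469 transcript: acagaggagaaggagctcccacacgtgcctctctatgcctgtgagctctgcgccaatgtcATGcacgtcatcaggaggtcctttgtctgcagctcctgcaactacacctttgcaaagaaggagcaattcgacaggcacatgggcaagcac

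A set of 6 members met the rule in D2.OR and stayed under 0.1 TPM in every D2A1 library. These were G730013B05Rik, Gm38246, AC159264.1, Gm26522, Gm3289 and 9430085M18Rik. G730013B05Rik (chr16:50526304-50559435, plus strand), whose promoter held 3 CCAAT boxes, was at 6.10, 4.87 and 3.59 TPM in D2.OR 2D and 4.41, 2.52 and 2.77 TPM in D2.OR 3D, against 0 to 0.08 TPM in D2A1. Gm38246 (chr3:51103660-51105170, plus strand) was at 2.11, 2.83 and 2.87 TPM in D2.OR 2D and 2.87, 3.28 and 3.13 TPM in D2.OR 3D, against 0 to 0.03 TPM in D2A1. Both were apart between the lines in each culture, while their choice required a gap in at least 1 culture. AC159264.1, 111 bases from Zfp458 and head to head with it, had a mean of 1.88 ± 0.108 TPM in D2.OR 2D and 0.0633 ± 0.00577 TPM in D2A1 2D (SD, n = 3), a log2 fold change of 4.999 with an SE of 0.39. 9430085M18Rik was at 1.61, 1.12 and 1.04 TPM in D2.OR 3D against 0.02 to 0.05 TPM in D2A1 3D.

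For Gm3289 no D2A1 2D library had a count, whereas D2.OR 2D held 0.72, 0.82 and 0.61 TPM, so that against a floor of 3 counts in each library it was at least 4.25-fold higher. Gm26522 had no count in D2A1 3D and 1.52, 1.92 and 1.55 TPM in D2.OR 3D, but it overlaps the gene Ctsc, whose reads cannot be told apart from its own and which had means of 11.2 TPM and 529 TPM in these groups. With a ceiling of 0.05 TPM in place of 0.1, the set held 2 members, and with 0.2 TPM it held 9.

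Gm28187 (chr1:101892958-101895091, minus strand) lay 1407016 bases from the nearest coding gene. It was at 2.67, 4.96 and 4.85 TPM in D2.OR 2D, 6.46, 8.87 and 11.8 TPM in D2.OR 3D and 0.02 to 0.16 TPM in D2A1. Within D2.OR each batch was higher in 3D, by 1.14, 0.81 and 1.27 on the log2 CPM scale, but the culture difference of 1.06 ± 0.36 did not pass (adjusted p = 0.17). It passed without batch 1, and with only the 6 D2.OR libraries in the fit.

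On the D2A1 side, 3 members met the rule and stayed under 0.1 TPM in all D2.OR libraries. Platr20 (chr11:51189833-51220418, minus strand), named for transcripts associated with pluripotency, was at 2.53, 2.32 and 1.72 TPM in D2A1 2D and at 2.96, 3.54 and 4.25 TPM in D2A1 3D. No D2.OR library had a count of it, so that it was lower by a factor of at least 14 in 2D and of at least 29.4 in 3D, against the same floor. Gm43674 (chr3:21997678-21998468, minus strand) was at 6.95, 4.86 and 6.58 TPM in D2A1 2D and at 8.11, 9.72 and 5.33 TPM in D2A1 3D, against 0 to 0.08 TPM in D2.OR. The lines were apart for both genes, and again their choice required a gap in at least 1 culture. Gm28872, a model of 158 bases that shares 84.8% of its exon bases, was at 0, 10.9 and 0 TPM in D2A1 2D and at 2.10, 5.19 and 10.1 TPM in D2A1 3D, and had too few counts to be tested.

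3300005D01Rik (chr17:5798657-5803240, plus strand), whose promoter held the AP-1 match, was at 8.27, 6.65 and 7.18 TPM in D2A1 2D and at 5.76, 10.5 and 8.42 TPM in D2A1 3D. All D2.OR libraries were lower, at 0.22 to 0.85 TPM. The log2 fold change was -4.66 ± 0.36 in 2D and -4.35 ± 0.34 in 3D, for a gene that met the rule in D2A1 only.

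**Figure D3:**
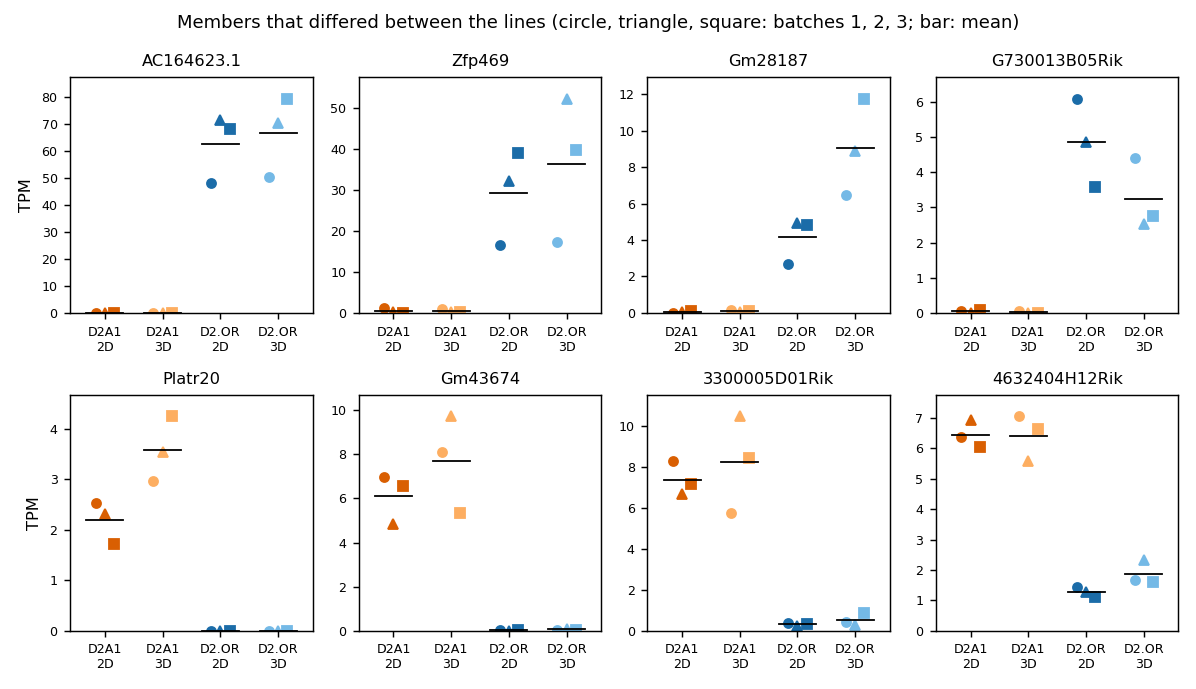
TPM in every library of 8 members that differed between the lines, by group, with batches 1, 2 and 3 as circles, triangles and squares and the mean as a bar. AC164623.1, Gm28187 and G730013B05Rik stayed at or under 0.16 TPM in D2A1, Zfp469 at or under 1.21 TPM, Platr20, Gm43674 and 3300005D01Rik at or under 0.85 TPM in D2.OR, and 4632404H12Rik was present in both lines at unequal levels.

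Of the 108 members that met the rule in all 4 groups, 20 (18.5%) were higher in D2.OR 2D and 21 (19.4%) lower, against 24.2% and 27.7% of the 9943 coding genes that met it in all 4. Members and coding genes were not matched for level here. Gm14005, Gm28875, Gm38079 and Gm26532 had the largest rises. Gm14005 (chr2:128178319-128502765, minus strand) is also known as Morrbid, a regulator of the nearby pro-apoptotic gene Bcl2l11 in myeloid cells. It was at 16.4, 7.12 and 9.87 TPM in D2A1 2D and 56.1, 68.8 and 55.6 TPM in D2.OR 2D, with no overlap and a log2 fold change of 2.60 ± 0.24 (adjusted p = 3.44e-05). In 3D the lines were at 12.6, 10.3 and 8.37 TPM and 38.6, 33.2 and 40.0 TPM (1.82 ± 0.23, adjusted p = 2.08e-04). Bcl2l11 did not pass, at 0.26 in 2D and 0.74 in 3D (adjusted p = 0.55 and 0.0968).

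Gm28875 was higher in D2.OR 2D by a log2 fold change of 2.21 ± 0.29 and Gm26532 by 1.44 ± 0.18, each with the 2D libraries of the lines apart. For Gm38079, a model of 154 bases with at most 12 counts in a library, the value was 1.97 ± 0.70 (adjusted p = 0.0425). Its libraries overlapped, with 4.21, 4.39 and 18.2 TPM in D2A1 2D and 11.97, 31.8 and 49.9 TPM in D2.OR 2D, and it did not pass when any of the 3 batches was left out.

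4632404H12Rik, A330074K22Rik, Gm1976 and 2810429I04Rik had the largest falls. 4632404H12Rik, 376 bases from Ube2q1 and head to head with it, was at 6.38, 6.93 and 6.03 TPM in D2A1 2D and at 1.43, 1.29 and 1.11 TPM in D2.OR 2D. The lines were apart in both cultures, and the log2 fold change was -2.23 ± 0.18 in 2D (adjusted p = 1.94e-05), beside -0.34 for Ube2q1, which encodes a ubiquitin-conjugating enzyme. The 2D values of the other 3 were -1.80 ± 0.34 for A330074K22Rik, which overlaps Gm20388 on the opposite strand, -1.53 ± 0.23 for Gm1976 and -1.34 ± 0.24 for 2810429I04Rik.

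Noncoding genes with known roles were taken from lists of any biotype. Of the list of nuclear and chromatin RNAs, 11 genes were tested and 5 were members. In D2.OR 2D, 3 were higher (Crnde, Fendrr and Tug1, none a member) and 2 lower, beside 25.4% and 24.4% of all genes tested, a share that also bears on the lists that follow. The lower ones were Hotairm1 and the member 1700020I14Rik. The latter, Cyrano, which directs the decay of a microRNA, was at 40.5, 51.2 and 54.1 TPM in D2A1 2D and 35.4, 36.7 and 38.4 TPM in D2.OR 2D, with the groups apart (-0.58 ± 0.13, adjusted p = 0.00558). Its 3D value was -0.08 ± 0.13 (adjusted p = 0.63). In 3D, 5 were higher, among them Malat1 and Neat1, and 1 was lower, beside 27.7% and 26.1% of all genes. The list's median log2 fold change was -0.012 in 2D and 0.467 in 3D. Pvt1, a neighbour of the growth regulator Myc, had -0.22 ± 0.23 in 2D and -0.34 ± 0.23 in 3D (adjusted p = 0.45 and 0.23), beside 1.71 and 2.45 for Myc (adjusted p = 7.30e-04 and 1.01e-04).

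Among 18 entries of snoRNA hosts tested, 6 were members, and Dancr was counted under more than 1 entry. In D2.OR, 4 were higher and 1 lower in 2D, and 3 were higher and 3 lower in 3D, with medians of 0.316 and -0.076. Of all genes, 25.4% were higher and 24.4% lower in 2D, and 27.7% and 26.1% in 3D. Epb41l4aos was at 22.4, 34.2 and 35.5 TPM in D2A1 2D and at 69.3, 68.3 and 70.0 TPM in D2.OR 2D. The lines were apart in both cultures, with a log2 fold change of 1.36 ± 0.17 in 2D and 1.36 ± 0.17 in 3D (adjusted p = 2.49e-04 and 2.31e-04). Snhg18 was higher in D2.OR by 0.81 ± 0.19 in 2D and 0.67 ± 0.19 in 3D. The member entry of Dancr, a host known to restrain differentiation, had -0.61 ± 0.31 in 2D (adjusted p = 0.13) and -0.89 ± 0.30 in 3D (adjusted p = 0.0333), and the difference between these values did not pass (adjusted p = 0.76). Its expected count was not whole in any library. A further Dancr entry, which was no member, passed in neither culture, with -0.45 ± 0.34 in 2D and -0.64 ± 0.32 in 3D (adjusted p = 0.30 and 0.12). Snhg6, Snhg12 and Snhg20 passed in neither culture.

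Of 7 microRNA hosts tested, 3 were members. In D2.OR, 2 were higher and 1 lower in 2D, and 2 were higher and 0 lower in 3D, with medians of -0.224 and 0.530. The list as first drawn up also held Mirt1, a transcript named for myocardial infarction and not known as a microRNA host, and with it the medians over 8 genes were -0.358 and 0.093. The 2 higher hosts, Dleu2 and Mir22hg, were no members. Mir155hg carries the immune regulator miR-155. It was at 2.77, 1.83 and 2.59 TPM in D2A1 2D and at 0.39, 0.74 and 0.64 TPM in D2.OR 2D. The groups were apart, and the log2 fold change was -1.92 ± 0.32 in 2D and -0.62 ± 0.30 in 3D, for a member that met the rule in D2A1 only. The mature microRNA itself was not measured. It lies at chr16:84714143-84714165 on the plus strand of GRCm38.p6 and is shown from RefSeq, as the product of the member of the 3 with the widest gap between the lines, with its seed (bases 2 to 8) in capitals.
miR-155-5p: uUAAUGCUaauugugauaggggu

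Mirt1 was lower in D2.OR 3D at -1.34 ± 0.32 (adjusted p = 0.00697) with -0.49 ± 0.32 in 2D, and Mir17hg, the host of the miR-17 cluster, had -0.60 ± 0.41 and -0.59 ± 0.40. On the differentiation and immune list, 13 genes were tested and 6 were members, and 3 were higher and 3 lower in D2.OR in each culture, with medians of -0.037 and -0.316. Ptgs2os2, which lies near the prostaglandin synthase gene Ptgs2, was at 13.6, 16.9 and 16.7 TPM in D2A1 2D and at 4.73, 7.86 and 10.4 TPM in D2.OR 2D. D2A1 was higher in all batches of both cultures (-1.01 ± 0.24 in 2D and -1.75 ± 0.24 in 3D, adjusted p = 0.00734 and 3.60e-04), while Ptgs2 itself had a mean of at most 0.187 TPM in any group. Platr22 had -1.52 ± 0.36 in 2D and -2.96 ± 0.39 in 3D (adjusted p = 0.00737 in 2D), and did not meet the rule in D2.OR 3D. Bvht, a lincRNA of the cardiac lineage, was higher in D2.OR 2D by 0.79 ± 0.22 (adjusted p = 0.0161) with 0.42 ± 0.22 in 3D (adjusted p = 0.13), and Dubr passed in neither culture.

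Of 5 p53-linked genes tested, 2 were members (Neat1 and Pvt1), and 1 was higher in D2.OR 2D and 3 in D2.OR 3D, with none lower and medians of -0.145 and 0.754, too few genes to set against the 25.4% and 27.7% of all genes that were higher. Of 4 imprinted genes tested, none was a member, and 1, Peg13, was higher in both cultures, with medians of 0.379 and 0.662. In the ribosomal stretch, with medians of 0.374 and 0.553, Gm26917 was higher in D2.OR in both cultures (0.81 ± 0.17 and 0.70 ± 0.17, adjusted p = 0.00403 and 0.00744). AY036118 had -0.32 ± 0.26 and -0.65 ± 0.26, and Gm42418 0.37 ± 0.23 and 0.55 ± 0.23, none of which passed.

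Between cultures, few members passed. In D2A1, 4 were higher and 2 lower in 3D, against 1.37% and 2.12% of all genes tested. In D2.OR, Neat1 alone was higher and 0 were lower, against 0.838% and 0.785%, while at an unadjusted p under 0.05 it was 26 higher and 14 lower. At that level 17.5% of members and 17.6% of all genes stood in D2.OR, and 26.8% and 31.4% in D2A1 (37 members higher and 24 lower). Of the members that met the rule in both cultures of a line, 4 of 141 passed in D2A1 and 1 of 147 in D2.OR. The counts moved with the batches: without batch 1 they were 62 in D2A1 and 10 in D2.OR, and without batch 2 or batch 3 they were 0 in both lines. Without the batch term they were 0 and 0, and DESeq2 called 31 and 13. The members' median log2 fold change was 0.017 in D2A1 and 0.126 in D2.OR, beside 0.004 and 0.002 over all genes. For the members that met the rule in both cultures of the line it was 0.016 and 0.088, beside -0.031 and -0.026 for coding genes counted in the same way. Scaled by library totals alone, the D2.OR median was 0.201, beside 0.076 over all genes.

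Neat1, the scaffold of paraspeckles, was at 119, 84.3 and 119.5 TPM in D2.OR 2D and at 213, 248 and 256 TPM in D2.OR 3D. These gene values do not separate its transcripts. Its length in the files was 3481 bases, beside 20771 bases for its longest transcript. Every 3D library lay above every 2D library, and the log2 fold change was 1.23 ± 0.21 (adjusted p = 0.0304), by batch 0.77, 1.63 and 1.27. In D2A1 it was at 104, 149.9 and 144 TPM in 2D and at 175, 100.1 and 139.7 TPM in 3D, which overlapped (0.26 ± 0.20, adjusted p = 0.42). The difference between the lines in this response, 0.97 ± 0.29, did not pass in edgeR (adjusted p = 0.16). It passed by DESeq2 and without batch 1, but not without batch 2 or without batch 3. Neat1 did not pass in D2.OR without batch 2 or without batch 3 (adjusted p = 0.48 and 0.37), and its expected count was not whole in any library.

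Malat1, an RNA of nuclear speckles, was at 195, 75.4 and 111 TPM in D2.OR 2D and at 422, 202 and 189 TPM in D2.OR 3D. Each batch was higher in 3D, by 0.94, 1.41 and 0.76 on the log2 CPM scale, but the groups overlapped and in edgeR the fold change of 1.03 ± 0.29 did not pass (adjusted p = 0.11). It passed by DESeq2, without batch 1, and with only the 6 D2.OR libraries in the fit. In D2A1 it was at 110.3, 103 and 174 TPM in 2D and at 119.6, 80.8 and 80.8 TPM in 3D (-0.37 ± 0.28, adjusted p = 0.40). Between the lines, Malat1 and Neat1 were higher in D2.OR 3D by 1.43 ± 0.29 and 0.82 ± 0.20 (adjusted p = 0.00275 and 0.00782), whereas in 2D the values were 0.02 ± 0.29 and -0.14 ± 0.20. For Neat1 the 3D difference did not pass without batch 2 or batch 3.

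**Figure D4:**
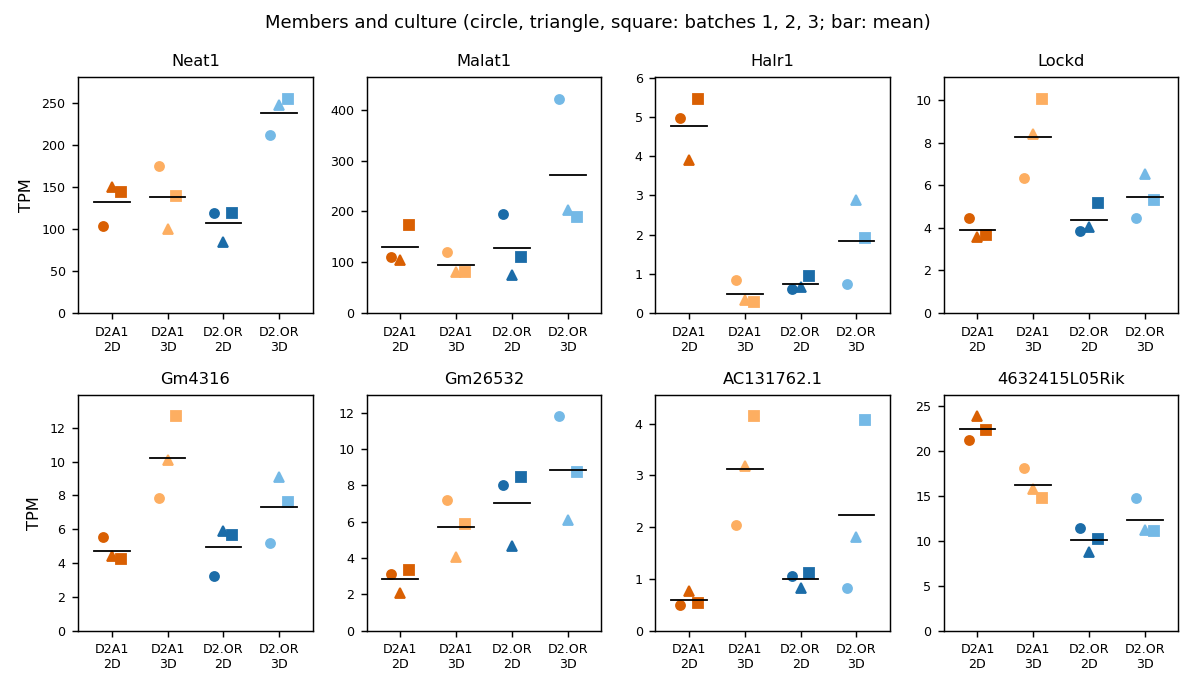
TPM in every library of the 7 members that passed in a culture comparison, and of Malat1, by group, with batches 1, 2 and 3 as circles, triangles and squares and the mean as a bar. Neat1 was higher in all 3 D2.OR 3D libraries than in any D2.OR 2D library, and Halr1 was lower in all 3 D2A1 3D libraries than in any D2A1 2D library.

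In D2A1, Gm26532, Lockd and Gm4316 met the TPM rule in both cultures and were higher in 3D. Lockd, which lies downstream of the cell cycle inhibitor gene Cdkn1b, was at 4.45, 3.55 and 3.64 TPM in 2D and at 6.34, 8.41 and 10.1 TPM in 3D. The cultures were apart, and the log2 fold change was 1.09 ± 0.23 (adjusted p = 0.0438), beside -0.46 for Cdkn1b (adjusted p = 0.15). Gm26532 was at 3.11, 2.08 and 3.32 TPM in 2D and at 7.19, 4.07 and 5.85 TPM in 3D (1.12 ± 0.18, adjusted p = 0.0307). Gm4316, which overlaps Gm20388 on the same strand, was at 5.52, 4.43 and 4.25 TPM in 2D and at 7.84, 10.1 and 12.7 TPM in 3D (1.16 ± 0.26, adjusted p = 0.0478). Both were apart between the cultures, as was 4632415L05Rik in the other direction. It was at 21.2, 23.9 and 22.4 TPM in 2D and at 18.2, 15.7 and 14.8 TPM in 3D, with -0.42 ± 0.10 and an adjusted p of 0.0499, at the edge of the threshold.

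AC131762.1 and Halr1 met the rule in 1 D2A1 culture only, so that a difference was part of their choice. AC131762.1 was at 0.5, 0.76 and 0.54 TPM in D2A1 2D and at 2.05, 3.19 and 4.14 TPM in D2A1 3D (log2 fold change 2.44 ± 0.48). Halr1 (chr6:52102949-52113684, plus strand) was at 4.97, 3.90 and 5.47 TPM in D2A1 2D and at 0.84, 0.32 and 0.29 TPM in D2A1 3D. The cultures were apart in D2A1, with a log2 fold change of -3.16 ± 0.61. In D2.OR it was at 0.6, 0.65 and 0.95 TPM in 2D and at 0.73, 2.88 and 1.92 TPM in 3D, which overlapped (1.27 ± 0.60, adjusted p = 0.31). Halr1 had at most 48 counts in a library.

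By edgeR, 0 members passed the test of the difference between the lines in their response to culture, against 0.0238% of all genes tested. At an unadjusted p under 0.05 it was 42 members (18.4%, against 17.8% of all genes), DESeq2 called 12, and limma on log2(TPM + 0.1) called 1. Gm26964, Halr1 and AC134528.2 ranked first by p-value, but each met the TPM rule in 1 group only (D2A1 2D for the first pair, D2A1 3D for AC134528.2), so that a difference was part of their choice and their values are a description. Gm26964 was at 1.79, 1.64 and 2.46 TPM in D2A1 2D and at 0.18, 0 and 0.5 TPM in D2A1 3D, while it had no count in D2.OR 2D and stood at 1.60, 0.22 and 0.73 TPM in D2.OR 3D. It shares 90.3% of its exon bases with another gene. AC134528.2 was at 0.28, 0.6 and 0.69 TPM in D2A1 2D and 1.27, 1.71 and 1.35 TPM in D2A1 3D, and at 0.29, 0.58 and 0.94 TPM in D2.OR 2D and 0.1, 0.35 and 0.27 TPM in D2.OR 3D.

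Directions by batch gave a wider view of culture. Of the 228 members tested, 25 (11%) were higher in 3D in all 3 batches of both lines, against 7.75% of all genes, and 13 (5.7%) were lower in all of them, against 9.65%. A further 18 (7.89%, against 7.03%) went one way in every batch of D2A1 and the other way in every batch of D2.OR. Some members met the rule in 1 culture of a line only, with 16 in D2.OR 3D alone against 4 in D2.OR 2D alone, so that a direction was part of their choice. Among the 108 that met it in all 4 groups, 13 were higher in every batch of both lines, 6 lower and 5 opposite, beside 825, 1290 and 684 of the 9943 coding genes that met it in all 4. The lines shared their batches, so these pairs of libraries are not independent.

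Members lay close to coding genes. The median distance to the nearest one was 3098 bases, 47 members overlapped it, and 36 lay over 50000 bases away. Of the 230, 51 started within 1000 bases of the start of a coding gene on the other strand. In 2D, the member and its nearest coding gene had line differences of the same sign in 135 of 193 pairs (69.9%), with r = 0.270 and rho = 0.411 across pairs. In 3D it was 120 of 193 (62.2%), with r = 0.339 and rho = 0.328. Coding genes and their nearest coding neighbours had the same sign in 60.9% and 59.8% of 9406 pairs. All pairs come from the same 12 libraries and some share a neighbour, so they are not independent.

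By distance, the same sign was seen in 2D in 75.0% of the 120 pairs that overlapped or lay within 5000 bases, in 66.7% of the 48 up to 50000 bases apart and in 52.0% of the 25 farther apart. In 3D these shares were 65.0%, 60.4% and 52.0%. For the culture differences, pairs of the same sign numbered 72 of 120, 29 of 48 and 16 of 25 in D2A1 and 60 of 120, 26 of 48 and 16 of 25 in D2.OR, with no fall over distance in either line. Members that followed a coding gene on the same strand within 5000 bases had r = 0.901 over 20 pairs in 2D, and 0.819 without Gm44751 and Ctsc, beside 0.047 and 0.017 for the culture differences in D2A1 and D2.OR. Their rho was 0.818 in 2D and 0.319 and 0.050 for culture, with the same sign in 16, 15 and 11 of the 20 pairs. The 45 pairs that lay head to head within 5000 bases had r = 0.305 in 2D, and 0.468 and 0.336 for culture in D2A1 and D2.OR, with the same sign in 33, 25 and 26 pairs. Gm44751 (chr7:88311478-88315864, plus strand) lay 590 bases downstream of Ctsc, which encodes the lysosomal protease cathepsin C. It was at 0.08, 0.16 and 0.12 TPM in D2A1 2D and 5.01, 5.73 and 3.82 TPM in D2.OR 2D, with the lines apart and a log2 fold change of 5.42 ± 0.39, beside 6.10 for Ctsc. Ctsc had a mean of 8.99 TPM in D2A1 2D and 531 TPM in D2.OR 2D. Gm26522 overlaps the span of Ctsc on the opposite strand, and whether unspliced Ctsc RNA added to its counts was not tested. Gm38079, 232 bases downstream of the flagellin receptor gene Tlr5, had 1.97 beside 2.19 for Tlr5, and Gm28875, 3244 bases downstream of Syne3, had 2.21 beside 1.32.

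**Figure D5:**
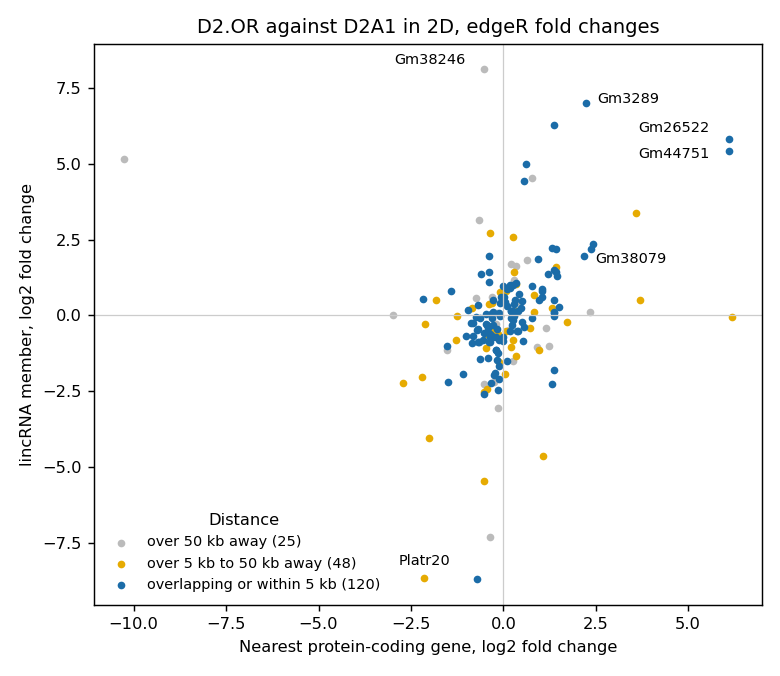
Log2 fold change of D2.OR against D2A1 in 2D for each member (vertical axis) and its nearest protein-coding gene (horizontal axis), in the 193 pairs with both tested, coloured by the distance between the genes. Gm44751 and Gm26522 share the neighbour Ctsc at 6.10, while Platr20 and Gm38246 lie far from 0 on the vertical axis beside neighbours at -2.15 and -0.52.

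Several line-specific members had no such neighbour. The coding genes nearest to AC164623.1, G730013B05Rik and Gm28187 had group means of at most 0.0167 TPM. The gene nearest to Gm38246, Noct, had -0.52 in D2.OR 2D (adjusted p = 0.0528). In the opposite sense, 3300005D01Rik was lower in D2.OR and its neighbour Snx9, a sorting nexin gene, 1.08 higher on the log2 scale in 2D (adjusted p = 9.92e-05).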

How the data were processed

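The deposited tables covered 12 libraries of 2 mouse lines in 2 cultures, 3 per group. According to the methods, the authors trimmed reads with Trimmomatic 0.32, aligned them with STAR 2.5.3 to GRCm38 with GENCODE M15, and derived with RSEM 1.3.0 the expected counts, the TPM and the FPKM values that were deposited. FPKM was not used. The labels name the molecule as total RNA, while the design text speaks of mRNA, so how RNA was selected is unclear, which bears on the nuclear and ribosomal members. Whether strand was kept is not given in the sources used here. Expected counts, of which 10.68% to 11.84% per library were over 0.005 from a whole number, were rounded. The authors' TPM values set membership and the levels printed.

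Of 52550 genes, 16823 passed edgeR's filter and were fitted together (edgeR 4.0.16 in R 4.3.3, TMM scaling, quasi-likelihood test) with group and batch as terms, the replicate being the batch and lane of the labels. Adjusted p-values are Benjamini-Hochberg over all genes tested, from the edgeR fit unless another tool is named, and a gene was called at an adjusted p under 0.05. The common biological coefficient of variation was 21.2%. Fold changes in single batches are differences of log2 CPM with a prior count of 2. The pairing of replicates was checked: deviations from group means correlated between libraries of the same number with r of 0.076 to 0.511 (median 0.267, 18 pairs), against a median of -0.195 between other numbers. Deviations within a group cancel out, so these medians are not independent of each other. P-values cover the spread between these cultures of 1 line each. Intervals of counts were not used, and floors of 3 counts cover counting error only. DESeq2 1.42.0, limma 3.58.1 on log2 TPM, other scalings and filters, and fits without each library or batch were alternatives.

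The members and lists were chosen with earlier results of these data known. Named members were the 10 most abundant, up to 8 per line listed there alone, up to 8 called per culture comparison with 1 direction in all batches, the 3 smallest interaction p-values (no member being called), the 4 largest rises and falls in 2D among members present in all groups, those on a list, and the genes at the edge of the TPM rule. Promoter and microRNA sequences are from RefSeq (GRCm38.p6) and gene models and transcripts from GENCODE M21. A sequence of AC164623.1 is not printed.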

Additional observations from a re-analysis of the deposited data

Results flagged for a closer look

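In 18 of the 228 members tested (7.89%, against 7.03% of all genes tested) the culture difference ran one way in every batch of D2A1 and the other way in every batch of D2.OR. Of these, 7 are among the named members. The difference between the lines in the response to culture, as a log2 value with its SE from edgeR, passed for none of the 7. For 4632415L05Rik it passed by DESeq2 and without batch 1, and for Gm26825 and 2810429I04Rik without batch 1. No member passed it without batch 2 or without batch 3. 4632415L05Rik had 0.616 ± 0.13 (adjusted p = 0.11), lower in 3D in D2A1 and higher in D2.OR. In the same sense, Halr1 had 4.424, Gm26964 10.602 and 9430085M18Rik 1.585. Gm26964 had no count in D2.OR 2D, so that its fitted value depends on the prior count and is no measure of size. In the other sense, higher in 3D in D2A1 and lower in D2.OR, were AC134528.2 with -2.889, Gm26825 with -0.884 ± 0.31 and 2810429I04Rik with -0.927 ± 0.33 (adjusted p = 0.20 for the latter pair). Halr1 and Gm26964 met the TPM rule in D2A1 2D only, AC134528.2 in D2A1 3D only and 9430085M18Rik in D2.OR 3D only, so that a culture difference was part of their choice and their values are given without a test. In D2A1 the batches of Gm26825 differed by 0.034, 1.252 and 0.711 on the log2 CPM scale, so that batch 1 hardly moved.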

How the results depend on the processing

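For named members, 48 values were followed, which gave 1132 values under the alternatives. None changed direction: 963 stayed on the same side of the threshold, 156 no longer passed and 13 newly passed. Other printed values, such as the culture difference of Malat1 in D2.OR, were not among the 48. For members that met the rule in 1 line only, the direction between the lines was part of their choice. Of the 156, 83 were among the 6 D2A1 culture values. The counts between lines stayed within 1.5 times under all alternatives that kept every library, with 97 members in 2D and 115 in 3D when the replicate block was left out. With 1 library or batch left out they ranged from 61 to 115 in 2D and from 72 to 139 in 3D. The culture count of 6 in D2A1 was 31 by DESeq2, 11 by limma on log2(TPM + 1), and 0 without the replicate block or with only the 6 libraries compared, and 0 to 62 with a library or batch left out. The count of 1 in D2.OR was 13 by DESeq2, 4 by limma on log2(TPM + 1), 2 by limma on log2(TPM + 0.1), with DESeq2 size factors, with at least 10 counts in every library, with library totals alone and with no filter, 5 with only the 6 libraries compared, 0 without the replicate block, and 0 to 10 with a library or batch left out. The interaction count of 0 was 12 by DESeq2, 1 by limma on log2(TPM + 0.1), 2 with no filter, and 0 to 33 with a library or batch left out. The cause of these shifts was not tested. A TPM of 2 or more left 152 members, and leaving out a batch gave 242 to 261. With a ceiling of 0.05 TPM, 2 members were listed in D2.OR alone. Library totals alone moved the median over all genes to -0.167 in 2D and -0.1 in 3D between the lines. Members with few counts, such as Gm38079, Gm28872 and Halr1, limit what this depth can show.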
